A study of Rattus norvegicus with 22 samples.

Results

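Monocytes were taken as the nuclei that the authors' annotation of the rat kidney snRNA-Seq data names Mono, in every treatment. They numbered 1626 of 310282 nuclei, or 0.524% (95% exact binomial interval 0.499% to 0.550%). The annotation holds 2 other immune types, macrophages (Mac, 6329 nuclei) and lymphocytes (2999 nuclei). Mono nuclei made up 14.8% (14.2% to 15.5%) of these 10954 immune nuclei and 20.4% (19.6% to 21.3%) of the nuclei named Mono or Mac. All intervals on shares cover counting error only. The type was taken as annotated and was not checked, since no gene values were analysed here. The markers Ptprc (the pan-leukocyte phosphatase CD45), Itgam (the integrin CD11b) and Lyz2 (lysozyme) were not read. The place of Mono nuclei on the UMAP is only described, since positions and type names come from the same expression values.

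Monocytes are made in the bone marrow, circulate in the blood and enter injured tissue along chemokine gradients, where they can mature into macrophages. Their survival and maturation depend on the receptor CSF1R, which binds the cytokines CSF1 and IL-34, and injured kidney tubules are a known source of both. Mono nuclei in a whole-kidney preparation can come from blood left in the vessels as well as from the tissue, and the annotation does not separate these sources.

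The kidneys came from Sprague-Dawley rats, all male according to the study's methods. Control rats were sham operated, while all other rats lost 1 kidney, drank water with 1% NaCl and received DOCA (deoxycorticosterone acetate, a mineralocorticoid) at 50 mg/kg every week. Control and DOCA therefore differ in surgery and salt as well as in the steroid, and these cannot be told apart. The DOCA group received vehicle. The 3 drug groups received finerenone at 10 mg/kg/day, spironolactone at 50 mg/kg/day or amiloride at 20 mg/kg/day on top of DOCA. Finerenone is a nonsteroidal and spironolactone a steroidal mineralocorticoid receptor antagonist (MRA), and amiloride blocks the epithelial sodium channel. The labels list 5 samples each for Control, DOCA, finerenone and spironolactone and 2 for amiloride. All were taken at 6 weeks except 1 DOCA, 1 finerenone and 1 spironolactone sample taken at 3 weeks.

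The annotation lists 22 libraries with their treatments, as many per treatment as the labels list samples, but no library name could be matched to a sample. The 3-week libraries are thus not known by name, and p-values measure only the spread between libraries. Libraries held 759 to 48403 nuclei (median 10658) and 6 to 287 Mono nuclei (median 63.5). The names of 11 libraries hold an Old or New tag. Of these, 5 (1 per treatment) also hold the letters MO, taken here to mark the Multiome kit. The study's methods name 5 samples made with that kit, which reads RNA and open chromatin from the same nucleus. The 11 tagged and the 11 untagged libraries carry different merge suffixes on their barcodes, so the authors joined them as separate sets. Amiloride is present only in the tagged set. By number per treatment, the untagged libraries match the earlier block of samples in the labels, all taken at 6 weeks. The tagged libraries match the later block, which holds all the 3-week samples. The 3-week libraries therefore probably lie in the tagged set, although no name links them. In 2 treatments a tagged and an untagged library share a number in their names, which could mark the same rat, but 5 other pairs with a shared number lie in different treatments. A barcode also present in another library was carried by 121 Mono nuclei (7.44%), against 6.37% of all nuclei. Among the 123 pairings this gave, the partner was a Mono nucleus in 2 and a Mac or Lymphocyte nucleus in 5.

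Monocytes were a rare type in every library. In the Control libraries they made up 0.264%, 0.272%, 0.407%, 0.433% and 0.485% of all nuclei. In the DOCA libraries the values were 0.481%, 0.494%, 0.620%, 0.780% and 1.28%. The groups overlapped at 1 point, the lowest DOCA library, which lay just under the highest Control library, and the latter value rests on 6 Mono nuclei (interval 0.178% to 1.05%). The mean was 0.731% ± 0.329 (SD, n = 5) under DOCA and 0.372% ± 0.0992 (SD, n = 5) in Control, a 1.96-fold difference.

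The difference of 0.359 percentage points (95% interval from the permutation test 0.0624 to 0.761) had an exact two-sided permutation p of 0.0159. After Benjamini-Hochberg adjustment over the 16 cell types of the same comparison it did not pass 0.05 (adjusted permutation p = 0.0762). Here even the smallest exact permutation p that 5 against 5 libraries can give, 0.00794, became 0.0635 after adjustment. No type can pass this adjustment alone, only together with others of low p, so not passing is largely set by the number of libraries. Before adjustment 31.2% of the 16 types passed, 5 in all and all of them higher under DOCA, and after adjustment 0% did. By the ratio of means Mono was the fourth of these, behind proliferating tubule cells (4.23-fold), Lymphocyte (3.76-fold) and Mac (2.89-fold) and ahead of injured proximal tubule cells (iPT, 1.75-fold). Mac made up 4.06% of nuclei under DOCA against 1.41% in Control (adjusted permutation p = 0.0762) and Lymphocyte 1.59% against 0.424% (adjusted permutation p = 0.0635).

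**Figure D1:**
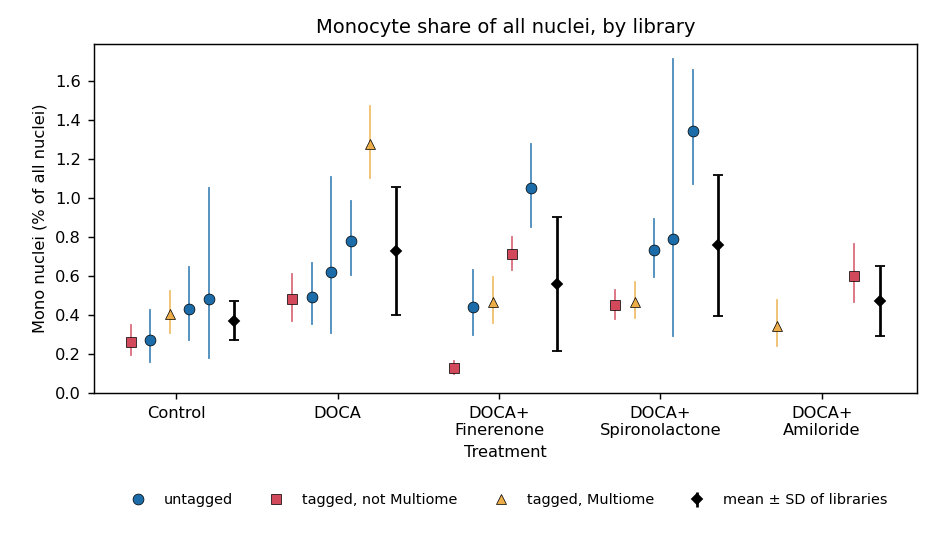
Mono nuclei as a percentage of all nuclei in each of the 22 libraries, by treatment. Points are libraries, with color and shape for the library set, thin lines are exact 95% binomial intervals, and diamonds with bars are the mean ± SD over libraries. 4 of 5 DOCA libraries lie above all Control libraries. Spironolactone libraries reach from 0.451% to 1.34%, finerenone libraries from 0.130% to 1.05%, and the 2 amiloride libraries lie at 0.344% and 0.601%.

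The spread between libraries was larger than counting error under DOCA. Its library of 15167 nuclei, made with the Multiome kit, had 194 Mono nuclei and a share of 1.28% (1.11% to 1.47%), clear of the other large DOCA libraries, whose intervals ended at or under 0.988%. Without this library the difference from Control was 0.222 percentage points (exact permutation p = 0.0317, adjusted p = 0.127). Counting error alone would give an SD of 0.122 percentage points over the DOCA libraries, against the 0.329 measured. In Control the corresponding values were 0.0920 and 0.0992, close to each other. The former is raised by the Control library of 1238 nuclei, which held 6 Mono nuclei. The largest Control library, of 18931 nuclei, had an interval of 0.196% to 0.348%, under the Control mean of 0.372%.

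A share also depends on the other nuclei captured. Nuclei of the proximal straight tubule (PST) alone ranged from 7.81% to 63.8% of a library. With PST and the proximal convoluted tubule (PCT) taken out of the denominator, an alternative chosen after the data were seen, Mono made up 1.32% ± 0.462 of nuclei under DOCA and 0.650% ± 0.134 in Control (SD, n = 5 each). The groups did not overlap in this share, as in 14.3% of the 14 types left (exact permutation p = 0.00794, the smallest that 5 against 5 libraries can give, and 0.0556 after adjustment over them). Adjusted over the 4 treatment comparisons of this share instead, the permutation p was 0.0317, so the call depends on which family of tests is taken. More monocytes and fewer nuclei of other types cannot be told apart in either share.

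Neither MRA group differed from DOCA beyond the spread between libraries. Under finerenone Mono nuclei made up 0.130%, 0.442%, 0.468%, 0.713% and 1.05% of all nuclei. Under spironolactone they made up 0.451%, 0.470%, 0.735%, 0.791% and 1.34%. Both groups covered most of the DOCA range, and finerenone also held the lowest value of all 22 libraries.

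The finerenone mean was 0.561% ± 0.343 (SD, n = 5), with a difference from DOCA of -0.170 percentage points (95% interval -0.662 to 0.324, exact permutation p = 0.437, adjusted p = 0.635). The finerenone library with the lowest share was the largest, with 48403 nuclei, of which 63.8% were proximal straight tubule nuclei. The other 21 libraries had 7.81% to 21.3% of that type. Without this library the difference from DOCA was -0.0625 percentage points, and without the finerenone library of 9325 nuclei it was -0.293.

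The spironolactone mean was 0.758% ± 0.361 (SD, n = 5), which is 0.0269 percentage points above DOCA (95% interval -0.488 to 0.551, exact permutation p = 0.881, adjusted p = 0.897). Its sign turned when the spironolactone library of 6404 nuclei was left out (-0.119), and likewise without each of 3 DOCA libraries. At the doses given, the difference of finerenone from spironolactone was -0.197 percentage points (95% interval -0.753 to 0.288, exact permutation p = 0.317, adjusted over the 16 types 0.929). The interval allows a lower, equal or higher share with the nonsteroidal MRA. The doses of the drugs differed, so this is a comparison of the 2 regimens.

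The 2 amiloride libraries had 0.344% and 0.601% Mono nuclei, a mean of 0.473% ± 0.182 (SD, n = 2). The difference from DOCA was -0.258 percentage points (exact permutation p = 0.286, adjusted p = 0.653). With 2 against 5 libraries the test cannot give a p under 0.0952, so no 95% interval exists. Of the 16 types, 12.5% passed before adjustment for finerenone against DOCA, 0% for spironolactone against DOCA and 0% for amiloride against DOCA. After adjustment 0% passed in each of these comparisons. A type could not pass alone. For finerenone the smallest possible exact permutation p, 0.00794, became 0.127 after adjustment.

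The drug comparisons took different signs in the 2 sets of libraries. Among untagged libraries the mean was 0.396% in Control (n = 3), 0.631% under DOCA (n = 3), 0.746% under finerenone (n = 2) and 0.956% under spironolactone (n = 3). Among tagged libraries it was 0.335% in Control (n = 2), 0.880% under DOCA (n = 2), 0.437% under finerenone (n = 3) and 0.460% under spironolactone (n = 2). DOCA was above Control in both sets, by 0.235 and 0.545 percentage points. The difference of finerenone from DOCA was 0.115 in the untagged set and -0.443 in the tagged set, and that of spironolactone was 0.325 and -0.420. None of these within-set differences could reach an exact permutation p under 0.05, since the smallest that 3 against 3 libraries allow is 0.100. Whether the differences from DOCA themselves differ between the sets was not tested. The 3-week DOCA, finerenone and spironolactone libraries probably lie in the tagged set, and no Control sample was taken at 3 weeks. Sampling time and library set therefore cannot be told apart in these differences, and the part of time was not tested.

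The next question was whether monocytes changed in proportion to the other immune types. Immune nuclei together made up 6.38% ± 2.45 of all nuclei under DOCA and 2.20% ± 0.959 in Control (SD, n = 5 each, exact permutation p = 0.0159, adjusted over 4 comparisons 0.0635). Within them, the Mono share was lower under DOCA in mean. Control libraries had 11.3%, 16.4%, 19.5%, 19.7% and 23.1% Mono among immune nuclei. DOCA libraries had 7.90%, 8.09%, 11.0%, 14.8% and 21.1%. Of the DOCA libraries, 3 lay under every Control library and the other two inside the Control range. The Control value of 23.1% rests on 26 immune nuclei (interval 8.97% to 43.6%).

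The means were 12.6% ± 5.50 under DOCA and 18.0% ± 4.42 in Control (SD, n = 5 each). The difference of -5.41 percentage points (95% interval -11.9 to 2.39) did not pass the test (exact permutation p = 0.119, adjusted over the 4 comparisons 0.381). The Mono share of Mono and Mac nuclei gave 17.1% against 22.7% (exact permutation p = 0.222). Without the DOCA library of 13307 nuclei, the one tagged DOCA library not made with the Multiome kit, the difference among immune nuclei was -7.53 (exact permutation p = 0.0317, adjusted 0.127).

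Under finerenone the Mono share of immune nuclei was 9.80%, 9.96%, 17.4%, 21.7% and 21.8%, with a mean of 16.1% ± 5.98 (SD, n = 5). Under spironolactone it was 9.49%, 10.2%, 10.7%, 12% and 23.9%, with a mean of 13.3% ± 6.04 (SD, n = 5). Under amiloride it was 20.9% and 23.5%. The differences from DOCA were 3.57 percentage points for finerenone (95% interval -4.80 to 12.3, exact permutation p = 0.333), 0.686 for spironolactone (-7.85 to 9.12, p = 0.817) and 9.61 for amiloride (p = 0.190). Adjusted over the 4 comparisons these were 0.444, 0.817 and 0.381. Finerenone lay 2.88 percentage points above spironolactone (95% interval -6.83 to 11.5, exact permutation p = 0.50). Within the untagged set the DOCA mean was 9.01% and the Control mean 16.9% (n = 3 each), a difference of -7.91 percentage points (exact permutation p = 0.100, the smallest possible). Within the tagged set the means were 17.9% and 19.6% (n = 2 each), a difference of -1.66. The differences from DOCA in the untagged and tagged sets were 0.869 and 2.40 for finerenone and 1.56 and -0.623 for spironolactone. Here too the tagged DOCA, finerenone and spironolactone values probably mix sampling times, and the part of time was not tested. The finerenone values fell into a low pair and a high group of 3, which are the untagged and the tagged libraries.

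**Figure D2:**
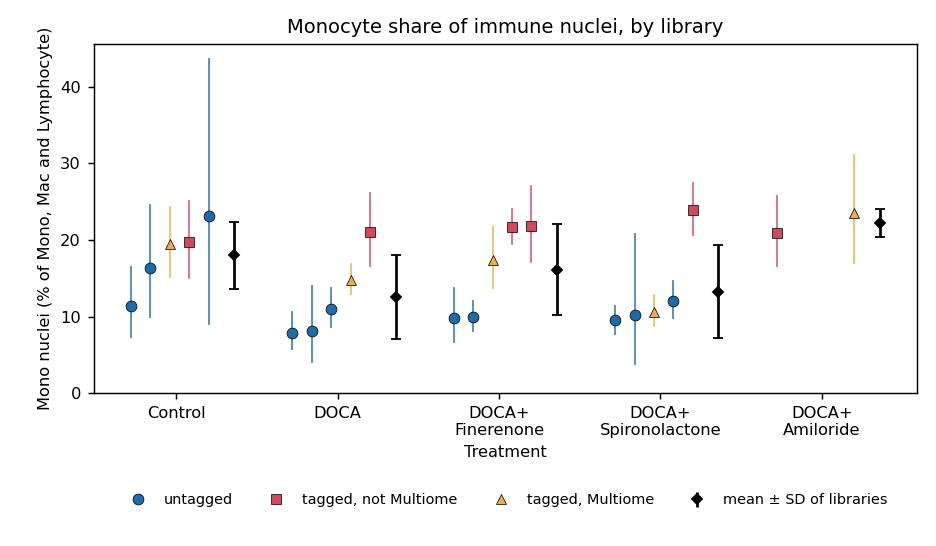
Mono nuclei as a percentage of Mono, Mac and Lymphocyte nuclei in each library, by treatment. Points are libraries by set, thin lines exact 95% binomial intervals, and diamonds with bars the mean ± SD over libraries. The 6 tagged libraries not made with the Multiome kit lie between 19.7% and 23.9% in every treatment, while 9 of the 11 untagged libraries lie between 7.90% and 12%.

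The Mono share of immune nuclei differed between the library sets. It ranged from 19.7% to 23.9% (median 21.4%) in the 6 tagged libraries not made with the Multiome kit, which come from all 5 treatments. Their SD of 1.41 percentage points was below the 2.14 that counting error alone gives, and the interval of each held their mean of 21.5%. The 11 untagged libraries ranged from 7.90% to 23.1% (median 10.2%) and the 5 Multiome libraries from 10.7% to 23.5% (median 17.4%). The highest untagged values, 16.4% and 23.1%, both came from Control rats and rest on 110 and 26 immune nuclei. The tag itself also divides the tagged libraries, as seen after the values were known. Those named New had 20.9% to 23.9%, including an amiloride Multiome library with 23.5%. Those named Old had 10.7% to 19.7%, the highest a Control library without the kit. All tagged Control libraries are Old and all amiloride libraries New. Tag, kit and treatment cannot be told apart here.

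The makeup of the other immune types was compared between the same sets. Mac made up 49.9% to 55.1% of immune nuclei in the tagged libraries without the Multiome kit and 57.3% to 75.0% in the untagged ones, so these ranges did not overlap. Lymphocyte made up 25.2% to 28% (median 26.7%) and 11.5% to 31.7% (median 26.8%), so the former range lay inside the latter. In the former 6 libraries the immune share itself varied from 0.597% to 3.28% of all nuclei while its makeup stayed within these ranges. What the set stands for is not stated in the sources used here. By number per treatment it matches the earlier (untagged) and later (tagged) block of samples in the labels, the latter with the 3-week samples. Its part in the differences between treatments was not tested beyond the within-set values.

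Across the 22 libraries the Mono share of all nuclei went together with the shares of Mac, Lymphocyte and iPT. The other annotated types were not compared, so whether the relation is particular to these types was not tested. Pearson's r was 0.82 with Mac (Spearman's rho 0.85, permutation p 2e-05 for r), 0.87 with Lymphocyte (rho 0.86, permutation p 1e-05) and 0.83 with iPT, the injured proximal tubule cells (rho 0.77, permutation p 1e-05). A value of 1e-05 is the smallest that 100000 permutations can give. Adjusted over the 4 relations tested, p for r was 2.67e-05, 2e-05 and 2e-05, and for rho 2e-05, 2e-05 and 8e-05. The fourth relation, with the number of nuclei in the library, gave r = -0.27 (rho -0.28, permutation p = 0.224, adjusted p = 0.224).

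Without the 2 libraries farthest from the median on the other measure, r was 0.73 with Mac, 0.78 with Lymphocyte and 0.71 with iPT. Within the 11 untagged libraries it was 0.84, 0.92 and 0.81, and within the 11 tagged ones 0.92, 0.90 and 0.81. In the tagged set the rank relation with iPT was weaker (rho 0.58, permutation p = 0.0651, adjusted 0.0868). In the 6 tagged libraries without the Multiome kit r was 0.99 with Mac and 0.99 with Lymphocyte (adjusted exact permutation p = 0.00278 each), while the relation with iPT did not pass (r = 0.65, rho 0.71, adjusted exact permutation p = 0.217 for r). When the mean of its treatment was taken from each value, r was 0.77, 0.83 and 0.79, so the relations also held between libraries of the same treatment (permutation within treatments, adjusted p = 0.00212, 0.000880 and 0.00172). Library set varies within treatments, and the relations were not tested with treatment and set held fixed together. With PCT and PST left out of the denominator r was 0.83, 0.90 and 0.82. The shares of 1 library have a common denominator, and libraries with few immune nuclei are low in all 3 immune types.

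**Figure D3:**
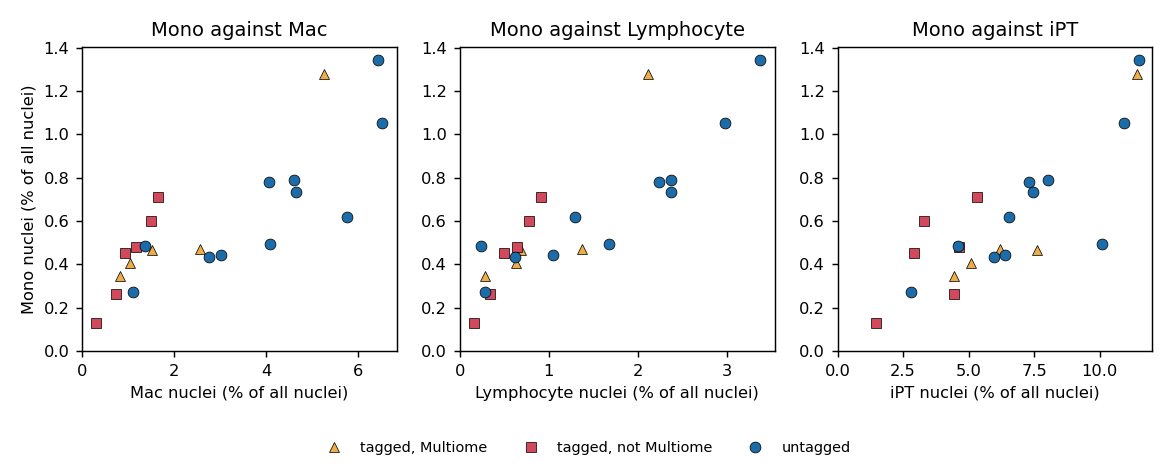
Mono nuclei against Mac, Lymphocyte and iPT nuclei, each as a percentage of all nuclei, with 1 point per library (n = 22) and color and shape for the library set. All 3 shares increase with the Mono share, and in the Mac panel the tagged libraries without the Multiome kit lie along a steeper line than the untagged ones.

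The libraries with the highest and lowest Mono shares show the relation. The spironolactone library of 6404 nuclei had 1.34% Mono, 6.43% Mac, 3.37% Lymphocyte and 11.5% iPT. The DOCA library of 15167 nuclei had 1.28%, 5.26%, 2.11% and 11.4%, and the finerenone library of 9325 nuclei 1.05%, 6.52%, 2.98% and 10.9%. At the other end, the finerenone library of 48403 nuclei had 0.130%, 0.310%, 0.157% and 1.48%. A library with many iPT and many macrophages and relatively few monocytes also exists, the DOCA library of 8300 nuclei, with 0.494% Mono, 4.08% Mac and 10.1% iPT.

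On the UMAP the authors made after batch correction with Harmony, Mono nuclei formed an island of their own. Of the 30 nearest neighbors of a Mono nucleus, 97.6% were Mono on average. The types next in number were Mac with 1.83%, PCT with 0.160% and principal cells of the collecting duct (PC) with 0.121%. All 30 neighbors were Mono for 1416 nuclei (87.1%), and 15 or more were for 1609 (99.0%). The center of the island lay 2.04 UMAP units from that of Mac and 2.72 from that of Lymphocyte, the nearest types. Type names and UMAP positions come from the same expression values, so this describes the annotation and is not independent support for it.

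The border was shared with macrophages and hardly at all with lymphocytes. At least 1 Mac neighbor was found for 117 Mono nuclei (7.2%), and at least 1 Mono neighbor for 133 of 6329 Mac nuclei (2.10%) and 1 of 2999 Lymphocyte nuclei (0.0333%). Among Mac nuclei 23 lay mostly among Mono nuclei. For 2 Mono nuclei fewer than 15 of the 30 neighbors were immune, and these lay at least 12.6 units from the center. They came from the DOCA library of 8300 nuclei and the spironolactone library of 22151 nuclei and leaving them out moved no comparison across the threshold.

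**Figure D4:**
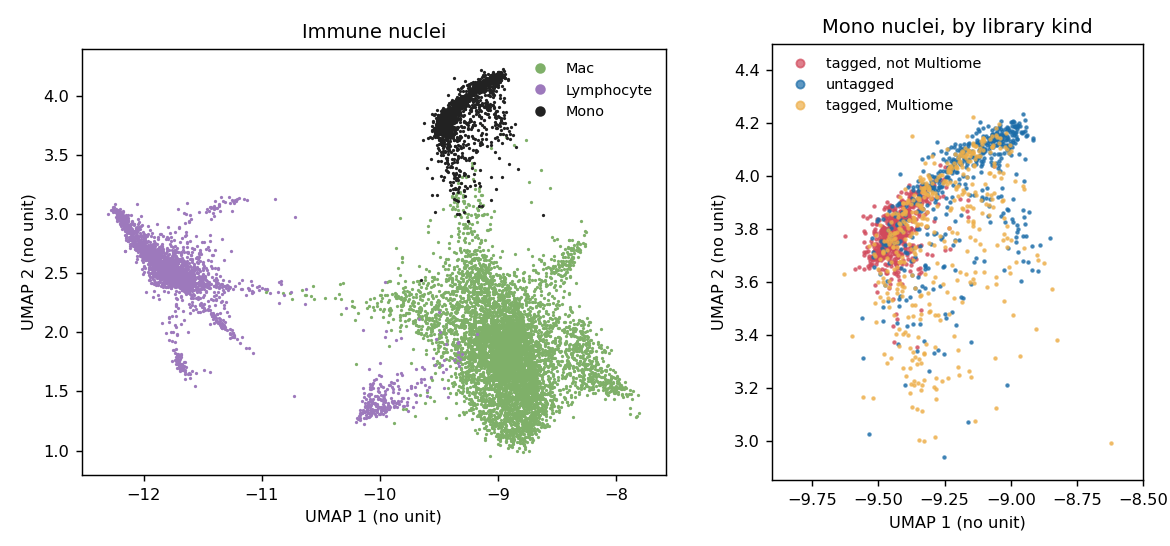
UMAP positions (no unit) of immune nuclei by type on the left and of Mono nuclei by library set on the right, with 1 dot per nucleus. Mono nuclei form a curved island above Mac with a thin bridge toward it, and nuclei of the tagged libraries without the Multiome kit gather at its lower left.

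Within the island, neighbors came from the same library more often than full mixing would give. A Mono nucleus had 15% of its 30 nearest Mono neighbors from its own library where mixing would give 8.0%, a ratio of 1.88. The same ratio was 1.46 for Mac and 1.54 for Lymphocyte. By library set (untagged, tagged without Multiome, Multiome) it was 1.69 for Mono, 1.30 for Mac and 1.35 for Lymphocyte, and by treatment 1.18, 1.07 and 1.11. The 3 types hold different numbers of nuclei, and 30 neighbors are a larger part of the smallest type.

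To describe this, the 1624 Mono nuclei within 1.5 units of the center were split into 2 sides by k-means on their UMAP position. This split was chosen after the positions were seen and no test is given on it. The upper right side held 585 nuclei (36%) and the lower left side 1039. Nuclei on the upper right were 72.2% of the Mono nuclei in the untagged libraries, 43.9% in the Multiome libraries and 5.12% in the 6 other tagged libraries, where the share per library ranged from 3.14% to 12%. The 43.9% is pooled over Multiome libraries of 17.1% to 54.4%. The lowest of these is named New, and the highest of the 6 others, with 12%, is named Old.

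Among untagged libraries the upper right share of Mono nuclei was 33.3%, 38.9% and 82.6% in Control and 81.8%, 82.5% and 85.3% under DOCA. With finerenone it was 65.5% and 71.4%, and with spironolactone 33.3%, 67.4% and 73.0%. The 33.3% values rest on 6 Mono nuclei each. In the Multiome libraries it was 21.7% in Control, 54.1% under DOCA, 31.2% with finerenone, 54.4% with spironolactone and 17.1% with amiloride. In the untagged set 1 Control library thus lay within the DOCA range, and in the Multiome set DOCA and spironolactone were highest. Among the 6 other tagged libraries the DOCA library had 4.69% and the Control library 12%. The former is named New and the latter Old, so treatment and tag cannot be told apart here.

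**Figure D5:**
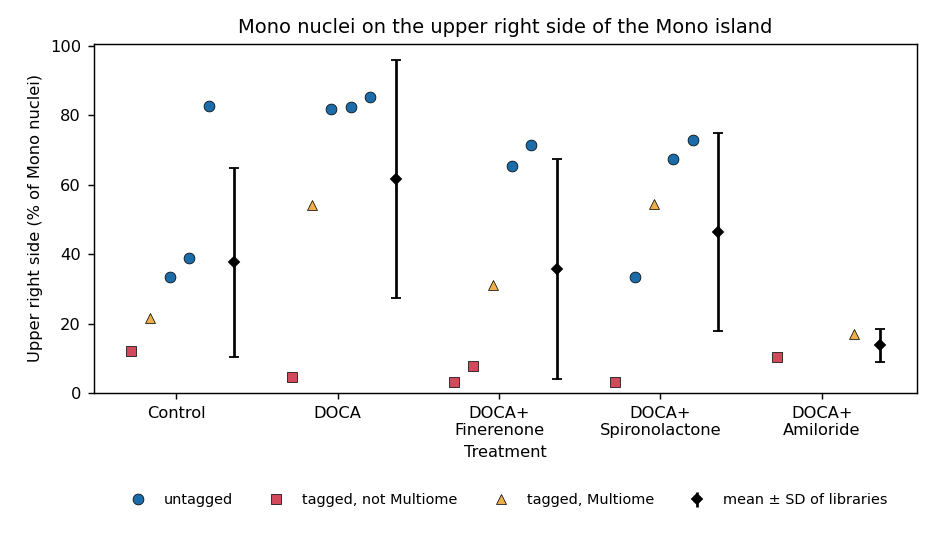
Mono nuclei on the upper right side of the Mono island as a percentage of the Mono nuclei of each library, by treatment. Points are libraries by set, and diamonds with bars the mean ± SD over libraries. The tagged libraries without the Multiome kit lie at 12% or lower in every treatment, and the 3 untagged DOCA libraries between 81.8% and 85.3%.

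As a percentage of all nuclei, the untagged DOCA libraries lay above the untagged Control libraries on the upper right side but not on the lower left. The upper right side made up 0.398%, 0.507% and 0.665% of their nuclei, and 0.106%, 0.162% and 0.358% of those of the untagged Control libraries. The closest of these, 0.398% and 0.358%, rest on 33 and 19 nuclei, and the difference was not tested. The lower left side made up 0.0843%, 0.113% and 0.115% under DOCA and 0.0753%, 0.166% and 0.323% in Control. In the tagged libraries without the Multiome kit, the lower left side was 0.458% under DOCA and 0.232% in Control, and the upper right side 0.0225% and 0.0317%, with 1 library each. These are again a New DOCA and an Old Control library. In the Multiome libraries both sides were higher under DOCA, with 0.692% against 0.0882% on the upper right and 0.587% against 0.319% on the lower left. Which genes separate the sides was not examined, as no gene values were used.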

How the data were processed

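Whole-kidney nuclei were profiled by snRNA-Seq in 22 libraries. The authors aligned reads to rn6 with Cell Ranger (3.0.2 and 6.0.1 in the submitters' processing notes), counting introns. They used SoupX against ambient RNA and DoubletFinder against doublets, filtered nuclei on genes and mitochondrial reads, corrected with Harmony and named clusters from markers in Seurat (4.0.1 in the notes). The deposited annotation names, for every nucleus, its library, its treatment and its type. The UMAP positions deposited with it are a score without a unit. No expression values were used here.

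Counts per library were made with pandas 2.3.3. Shares have Clopper-Pearson 95% intervals (scipy 1.17.1). Treatments were compared by exact two-sided permutation tests on library percentages with equal weight, with Benjamini-Hochberg adjustment over 16 cell types (share of all nuclei) or 4 comparisons (share of immune nuclei). Intervals of differences invert the test. Correlations used 100000 permutations. Neighbors were found with scikit-learn 1.9.0. The test code was tested on simulated data. The cell types described are Mono, Mac, Lymphocyte, iPT and the 3 types nearest to Mono, and others were named after their values were seen. The members and lists were chosen with earlier results of these data known. Alternatives changed weights, scale, denominators, libraries and neighbors.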

Additional observations from a re-analysis of the deposited data

Results flagged for a closer look

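The spironolactone library of 33683 nuclei stood apart from the other 4 of its group. Its Mono share of immune nuclei was 23.9%, against 9.49% to 12%, and its Mono share of Mono and Mac nuclei was 32.4%, against 13.7% to 17.3%. In both, the gap to the next library (0.823 and 0.808 of the group's whole range) was above Dixon's 95% limit of 0.71 for 5 samples. Such a gap is expected by chance in about 1 of 20 groups, and 24 ends of groups were examined here, of which these were the 2 past the limit. The library is the 1 spironolactone library that is tagged and not made with the Multiome kit, and the 5 such libraries of other treatments had 19.7% to 21.8% Mono among immune nuclei. It is also the only spironolactone library named New. The other New libraries, including the amiloride Multiome library, had 20.9% to 23.5%. Its part in the spironolactone mean was measured by leaving it out, which turned the difference from DOCA in the share of immune nuclei from 0.686 to -1.98 percentage points.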

How the results depend on the processing

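Of 190 alternative values, 173 kept the direction and, where tested, the side of the 0.05 threshold. Of the 190, 10 had no test and 46 had too few libraries to reach 0.05 even before adjustment, so their side of the threshold says nothing. The side was taken after adjustment. Many of the remaining comparisons, including those with 1 library left out, could not pass it on the Mono share alone. Keeping the side there says little. No alternative brought a comparison of the share of all nuclei past the threshold after adjustment over the cell types, or one of the share of immune nuclei after adjustment over the 4 comparisons. The share without PCT and PST, DOCA against Control, passed when adjusted over the 4 comparisons (exact permutation p = 0.0317) and not over the cell types (0.0556). The relations with Mac and Lymphocyte kept r past the threshold in the alternatives run, and that with iPT in all but the 6 tagged libraries without the Multiome kit (r = 0.65, adjusted exact permutation p = 0.217). The 16 values that changed sign all belong to comparisons that had not passed, and their cause was not tested. For the share of all nuclei, finerenone against DOCA was 0.115 percentage points in untagged libraries. Spironolactone against DOCA was -0.215 with pooled nuclei, -0.00894 without libraries under 2000 nuclei and -0.420 in tagged libraries. Amiloride against DOCA was 0.00743 without the Multiome libraries, with 1 amiloride library left. For the share of immune nuclei, spironolactone against DOCA was -0.0623 with pooled nuclei, -0.623 in tagged libraries and -0.178 with libraries of the same number averaged. DOCA against Control kept its sign but moved over 1.5 times without the Multiome libraries (0.230, adjusted exact permutation p = 0.131), in untagged libraries (0.235) and in tagged libraries (0.545), and for immune nuclei without libraries under 2000 nuclei (-3.02) and in tagged libraries (-1.66). The relation with the number of nuclei was 0.18 in untagged libraries.

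With each library left out in turn, the share of all nuclei gave 0.222 to 0.421 for DOCA against Control, -0.293 to -0.0331 for finerenone, -0.119 to 0.164 for spironolactone and -0.387 to -0.121 for amiloride against DOCA. For the share of immune nuclei the ranges were -7.53 to -4.14, 2.15 to 5.69, -1.98 to 2.81 and 8.30 to 11.7. The DOCA library of 15167 nuclei moved all 4 differences in the share of all nuclei by over 1.5 times (0.222, -0.0331, 0.164 and -0.121 without it), and the amiloride library of 10172 nuclei moved the last (-0.130).

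Chosen after seeing the data were the denominator without PCT and PST, leaving out the tagged libraries not made with the Multiome kit, averaging libraries of the same number, relations within these tagged libraries alone, and deviations from treatment means. Untagged libraries gave no amiloride value. No paired analysis was possible because the library names match no sample, so the replicate numbers of the labels pair none. Libraries of 759 to 1774 nuclei hold 6 to 11 Mono nuclei, which limits their shares.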
